A study of Mus musculus with 4 samples.

Results

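The genes that make, remodel and break down sphingolipids, with the elongases that build very long chain fatty acids, were followed in cultured mouse bladder epithelium with and without the transcription factor p63. The list held 44 genes, and 42 of them were measured by a transcript cluster (a gene-level probe group) that the array's annotation ties to 1 gene symbol, out of 23332 clusters in all. Cers1 and Cers3, ceramide synthases, were not analysed here. Members were taken by name. Acer2 had a pair of such clusters, of which the brighter on average is given as the gene's value. The list was drawn up with earlier results of these arrays known, so counts over it are a description and carry no list test.

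Sphingolipids are built in the endoplasmic reticulum, where serine palmitoyltransferase joins serine to a fatty acyl-CoA. Ceramide synthases then add a second acyl chain, whose length depends on the chain each synthase prefers and on the chains the elongases make. Ceramide becomes sphingomyelin, glucosylceramide or ceramide 1-phosphate, or is cut by ceramidases to sphingosine, the precursor of the signalling lipid sphingosine 1-phosphate. In stratified epithelia, ceramides with very long and hydroxylated chains form the water barrier.

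The groups were compared on Affymetrix Mouse Exon 1.0 ST arrays. The KO-BL group held 2 arrays of epithelial stem cell colonies grown from the bladders of p63 knockout newborns, and the WT-BL group held 2 arrays of such colonies from wild-type newborns, both of strain C57BL/6J as the labels give it. All colonies grew on 3T3 feeder cells, a mouse fibroblast line whose RNA hybridises to the same probes, and were picked before RNA isolation. The labels name neither the knockout allele nor the sex of the pups, and do not say whether the arrays of a group came from separate animals, so p-values measure the spread between these arrays, which may be technical. Values are log2 intensities as deposited, and a difference is the KO-BL mean minus the WT-BL mean.

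Trp63, which encodes p63, was at 4.60 and 4.74 in the KO-BL arrays and at 8.98 and 8.99 in the WT-BL arrays. Array medians lay between 5.08 and 5.13. The 95th percentile of 719 olfactory receptor clusters, genes that should be off in bladder, was also 5.08 and is called the olfactory level here. It lies close to the array medians, so values below it may still come from expressed genes, and the table has no detection calls. The median of the olfactory receptor clusters was 3.35 and 3.34 in KO-BL and 2.89 and 2.80 in WT-BL. The lower quartile of all clusters was 4.06 and 4.06 in KO-BL and 3.80 and 3.82 in WT-BL. Dim values were thus higher in KO-BL across the array, which bears on small rises of dim genes. Summed linear intensity of 8 measured epithelial markers was 4111 and 3579 in KO-BL against 8019 and 8181 in WT-BL. Of the 8, 2 fell (Krt5 and Krt14). Without overlap, 6 of the 8 were lower in KO-BL and 2 were higher, Epcam and Cldn7. Epcam was at 8.92 and 8.77 in KO-BL and at 8.55 and 8.56 in WT-BL. Cldn7 was at 9.18 and 8.86 in KO-BL and at 8.49 and 8.44 in WT-BL. The brightest epithelial markers were well above the array medians in every array, with Krt18 at 10.68 ± 0.07 in KO-BL and 11.31 ± 0.02 in WT-BL, Krt19 at 9.03 ± 0.60 and 10.41 ± 0.03, and Cldn4 at 8.45 ± 0.10 and 9.38 ± 0.21 in the same order (SD, n = 2 each). The 15 fibroblast and feeder markers summed to 5047 and 7938 in KO-BL and to 6988 and 5146 in WT-BL, so the sums overlapped. Of the 15 markers, 0 passed the test. Without overlap, 3 were lower in KO-BL (Dcn, Lum and Col3a1) and 1 was higher (Vim), while 11 overlapped. Beside these epithelial and feeder counts, 20.9% of all clusters were lower and 36.2% higher without overlap. The 7 endothelial markers summed to 122 and 114 in KO-BL and to 416 and 213 in WT-BL, with 0 calls. The Y-linked gene Eif2s3y was at 3.30 ± 0.40 in KO-BL and 7.77 ± 0.48 in WT-BL, so the sex of the cells and the genotype cannot be told apart.

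Of the 42 measured genes, 7 fell in the knockout colonies, 0 rose and 35 did not pass the test (limma, adjusted p under 0.05 over all clusters). Among all clusters, 0.386% were called lower and 0.141% higher (0.527% in all), a background given without a reading because the list was chosen with these results known. The 7 were Sptssb, Acer2, Sptlc3, Fa2h, Nipal4, Elovl6 and Elovl4, and they stand at the first step of synthesis, at ceramide formation, at ceramide breakdown, in fatty acid elongation and in the formation of barrier lipids. In each of them both KO-BL arrays lay below both WT-BL arrays, with the KO-BL mean at or below the olfactory level and the WT-BL mean above it, so the folds may be understated. In bulk arrays, fewer cells of a type and less RNA per cell cannot be told apart. Refits on 3 arrays, with 1 group reduced to a lone array assumed to vary like the other group, kept none of the 7 calls (adjusted p between 0.075 and 0.41).

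**Figure D1:**
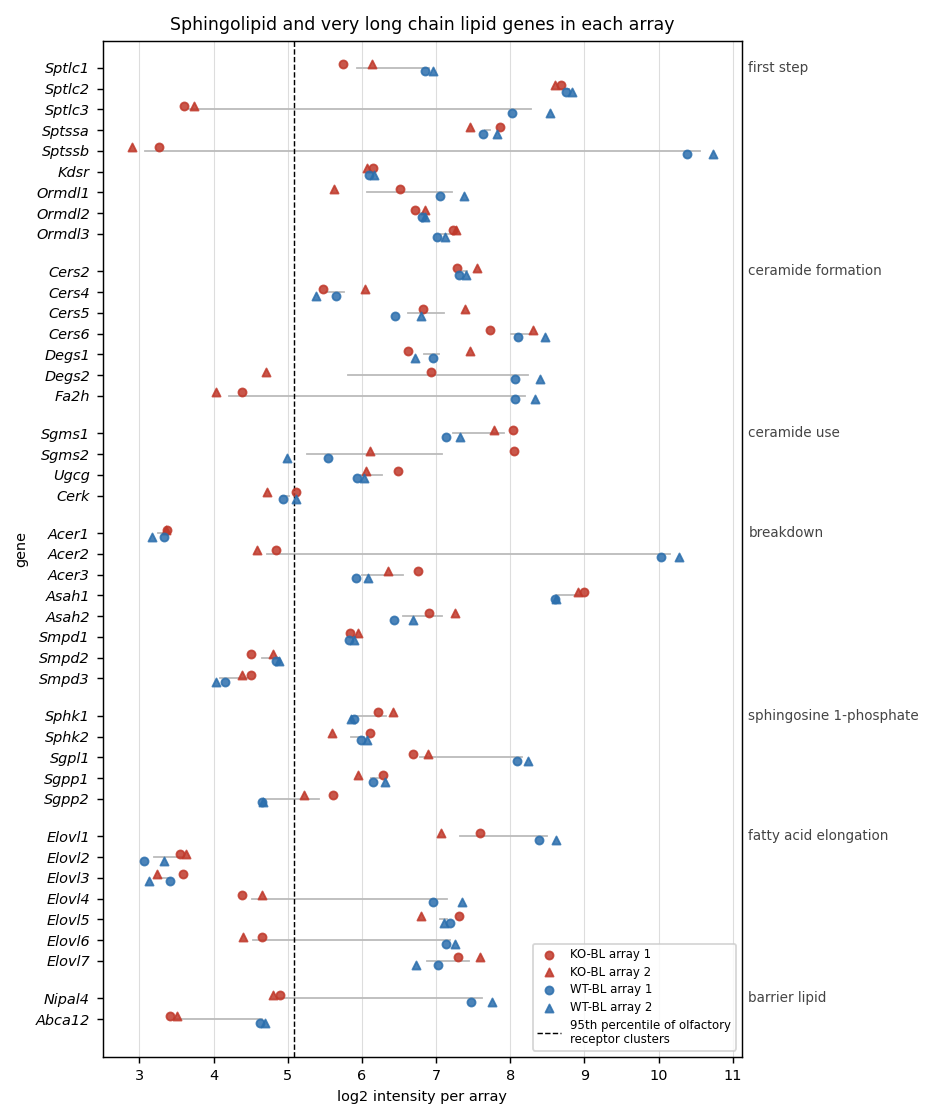
Log2 intensity (horizontal axis) of each of the 42 measured genes (rows, grouped by pathway step) in the 2 KO-BL arrays (red, drawn slightly above) and the 2 WT-BL arrays (blue); grey lines join the group means and the dashed line marks 5.08, the 95th percentile of olfactory receptor clusters. The red points of Sptssb, Acer2, Sptlc3, Fa2h, Nipal4, Elovl6 and Elovl4 lie left of that line and their blue points right of it.

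The stretches before the transcription starts of the 3 genes with the largest decreases are shown because genes that move together are often compared by their promoters. They are given 5′ to 3′ on the gene's strand from RefSeq (GRCm38.p6), with CpG dinucleotides in capitals: Sptssb at chr3:69859895-69860144 on the minus strand, Acer2 at chr4:86874164-86874347 on the plus strand and Sptlc3 at chr2:139493663-139493912 on the plus strand.
Sptssb: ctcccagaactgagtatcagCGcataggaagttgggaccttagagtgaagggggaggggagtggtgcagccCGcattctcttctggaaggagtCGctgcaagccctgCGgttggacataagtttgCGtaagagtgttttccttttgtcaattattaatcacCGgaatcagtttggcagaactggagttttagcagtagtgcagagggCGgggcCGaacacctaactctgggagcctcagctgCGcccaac
Acer2: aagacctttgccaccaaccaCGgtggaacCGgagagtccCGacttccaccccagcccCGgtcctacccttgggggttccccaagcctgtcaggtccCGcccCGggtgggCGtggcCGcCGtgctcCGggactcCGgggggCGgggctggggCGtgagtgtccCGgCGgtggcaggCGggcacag
Sptlc3: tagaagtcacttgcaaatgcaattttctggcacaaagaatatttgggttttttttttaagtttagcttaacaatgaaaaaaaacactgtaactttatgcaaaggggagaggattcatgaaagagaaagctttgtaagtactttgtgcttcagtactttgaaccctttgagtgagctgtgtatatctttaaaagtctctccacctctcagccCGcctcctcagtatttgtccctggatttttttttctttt
The 3 differ in base composition. The RefSeq window, 250 bases before to 50 after the start, held 9 CpG dinucleotides for Sptssb, 31 for Acer2 and 1 for Sptlc3. The same windows of Nipal4, Elovl6 and Elovl4 held 23, 14 and 35, against a median of 7 over 32851 windows of all genes and of 20 over the 49 windows of listed genes that did not pass. Fa2h had no window in the table. Both strands of each window were searched for the p53 family half-site with a CATG core, for TGANTCA (a site of AP-1 factors), for AACNGGTT (a site of Grainyhead-like factors) and for TATAAA. None of these letters occurred in the 6 windows of genes that fell. Over all windows the shares were 1.93%, 7.81%, 2.09% and 13.6%, and over the 49 windows of listed genes that did not pass they were 2.04%, 14.3%, 2.04% and 4.08%, in the order named. Several windows of 1 gene can overlap, and a window without a match says nothing about more distant sites.

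At the first step, 2 of 9 measured genes fell, 0 rose and 7 did not pass. Sptssb encodes a small activating subunit of serine palmitoyltransferase that, in mammalian cells, steers the enzyme towards longer acyl-CoA substrates. It was at 3.26 and 2.90 in KO-BL, against 10.38 and 10.73 in WT-BL. It fell by 7.48 on the log2 scale (178-fold, 95% interval -8.12 to -6.84, adjusted p = 0.015). The alternative small subunit, Sptssa, was at 7.87 and 7.46 in KO-BL and at 7.63 and 7.81 in WT-BL. Its arrays overlapped, with a difference of -0.06 and an interval of -0.66 to 0.54 that did not overlap that of Sptssb. The log2 ratio of Sptssb to Sptssa within an array therefore differed by -7.42 between the groups.

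Serine palmitoyltransferase has a common subunit, Sptlc1, which pairs with Sptlc2 or Sptlc3 as its catalytic subunit. Sptlc3 was at 3.59 and 3.74 in KO-BL, against 8.02 and 8.53 in WT-BL. It fell 24.4-fold (difference -4.61, interval -5.27 to -3.95, adjusted p = 0.032). Sptlc2 averaged 8.65 ± 0.05 in KO-BL and 8.79 ± 0.06 in WT-BL, and Sptlc1 averaged 5.93 ± 0.28 and 6.91 ± 0.08 in the same order (adjusted p = 0.62 and 0.12). The interval of Sptlc1 ran from -1.55 to -0.40 and that of Sptlc2 from -0.59 to 0.30, both apart from that of Sptlc3. The large decreases at this step thus lay in 1 of 2 alternative catalytic subunits and in 1 of 2 alternative small subunits.

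Kdsr, which reduces the product of the first step, averaged 6.11 ± 0.06 in KO-BL and 6.12 ± 0.05 in WT-BL. The ORMDL proteins hold serine palmitoyltransferase in check when ceramide is plentiful. Ormdl1 was at 6.52 and 5.62 in KO-BL, against 7.06 and 7.38 in WT-BL, without overlap, but it did not pass (difference -1.15, adjusted p = 0.19). Ormdl2 and Ormdl3 had differences of -0.04 and 0.18, with intervals of -0.49 to 0.41 and -0.26 to 0.63.

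Among 7 measured genes of ceramide formation, Fa2h fell. Fa2h adds a hydroxyl group to the fatty acid that goes into ceramide. It was at 4.38 and 4.03 in KO-BL, against 8.06 and 8.33 in WT-BL (15.9-fold, difference -3.99, interval -4.59 to -3.39, adjusted p = 0.032). The values of each group lay close together and far from those of the other.

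Degs2 and Degs1 are dihydroceramide desaturases, and Degs2 also hydroxylates the base to give phytoceramide, a form common in skin, kidney and gut. Degs2 was at 6.93 and 4.71 in KO-BL, against 8.07 and 8.40 in WT-BL. Both KO-BL arrays were below both WT-BL arrays, but KO-BL array 1 stood between KO-BL array 2 and the wild type, and the gene did not pass (difference -2.42, interval -4.57 to -0.27, adjusted p = 0.20). Degs1 averaged 7.04 ± 0.59 in KO-BL and 6.83 ± 0.17 in WT-BL. The ceramide synthases, which differ in the acyl chain they prefer, had small differences. They were 0.06 for Cers2, which uses very long chains, 0.24 for Cers4, 0.48 for Cers5 and -0.27 for Cers6, with adjusted p between 0.37 and 0.88. The intervals of these 4 genes lay between -1.04 and 1.25.

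None of the 4 measured genes that convert ceramide into other lipids passed. Sgms2, the sphingomyelin synthase of the plasma membrane, was at 8.05 and 6.11 in KO-BL, against 5.54 and 4.99 in WT-BL. The groups did not overlap, but the gap between the KO-BL arrays was larger than that between the group means (difference 1.82, interval -0.12 to 3.76, adjusted p = 0.24). Sgms1, the Golgi sphingomyelin synthase, averaged 7.91 ± 0.18 in KO-BL and 7.23 ± 0.14 in WT-BL (adjusted p = 0.17). Ugcg, which makes glucosylceramide, had a difference of 0.28, and Cerk, the ceramide kinase, one of -0.10. These values are set against a median difference of 0.12 over all clusters, which was 0.0029 after quantile normalization.

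Of 8 measured genes of ceramide and sphingomyelin breakdown, Acer2 fell. Acer2 is an alkaline ceramidase of the Golgi that releases sphingosine. It was at 4.84 and 4.59 in KO-BL, against 10.03 and 10.27 in WT-BL (43.3-fold, difference -5.44, interval -5.98 to -4.90, adjusted p = 0.015). A second cluster annotated to Acer2 did not show this. It was at 4.68 and 4.09 in KO-BL and at 4.57 and 4.95 in WT-BL, below the olfactory level in every array (difference -0.37, adjusted p = 0.49).

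The other 4 ceramidases did not pass. Acer3, a further alkaline ceramidase, averaged 6.55 ± 0.29 in KO-BL and 6.00 ± 0.12 in WT-BL. Asah1, the lysosomal acid ceramidase, averaged 8.95 ± 0.05 and 8.61 ± 0.0042, and Asah2, the neutral ceramidase, 7.08 ± 0.24 and 6.56 ± 0.18, in the same order. In these 3 genes both KO-BL arrays lay above both WT-BL arrays (adjusted p between 0.24 and 0.30), as they did in 36.2% of all clusters. Acer1, the ceramidase of the epidermis, was below the olfactory level in every array, at 3.36 and 3.25 on average in KO-BL and WT-BL, and its difference of 0.12 became -0.28 after quantile normalization and after cyclic loess. The sphingomyelinases Smpd1, Smpd2 and Smpd3 had differences of 0.04, -0.21 and 0.35.

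None of 5 genes of sphingosine 1-phosphate metabolism passed. Sgpl1, the lyase that ends the pathway by cleaving sphingosine 1-phosphate, was at 6.68 and 6.89 in KO-BL, against 8.09 and 8.23 in WT-BL. The groups were well apart, with a difference of -1.38 (interval -1.87 to -0.88, adjusted p = 0.075). It passed after the dimmest clusters, up to the 25th percentile, were removed (adjusted p = 0.047) and with an intensity trend in the variance (0.049). Sgpp2, a phosphatase that turns sphingosine 1-phosphate back into sphingosine, averaged 5.42 ± 0.27 in KO-BL and 4.66 ± 0.01 in WT-BL (adjusted p = 0.17), while its relative Sgpp1 had a difference of -0.12. The sphingosine kinases Sphk1 and Sphk2 had differences of 0.45 and -0.18.

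Of the 7 fatty acid elongases, Elovl6 and Elovl4 fell, 0 rose and 5 did not pass. Elovl6 lengthens palmitate to stearate. It was at 4.66 and 4.39 in KO-BL, against 7.13 and 7.25 in WT-BL (6.35-fold, difference -2.67, interval -3.18 to -2.16, adjusted p = 0.034). Elovl4 makes the longest chains, which skin and retina need. It was at 4.39 and 4.65 in KO-BL, against 6.95 and 7.35 in WT-BL (6.20-fold, difference -2.63, adjusted p = 0.048). Elovl4 stood close to the threshold and missed it after quantile normalization and after cyclic loess (adjusted p = 0.051 in both).

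Elovl1, which feeds Cers2 with very long chains, was at 7.59 and 7.06 in KO-BL, against 8.39 and 8.61 in WT-BL. The arrays did not overlap, and it did not pass (difference -1.17, adjusted p = 0.12). Elovl5, which acts on polyunsaturated chains, averaged 7.05 ± 0.37 in KO-BL and 7.15 ± 0.06 in WT-BL, and Elovl7 averaged 7.44 ± 0.21 and 6.88 ± 0.21 in the same order (adjusted p = 0.84 and 0.23). Elovl2 and Elovl3 were below the olfactory level in all 4 arrays. The 7 elongases thus ran from -2.67 to 0.57, and the intervals of Elovl6 and Elovl4 did not overlap those of Elovl5 and Elovl7.

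Nipal4 and Abca12 are needed for the lipid barrier of the skin, and mutations in either cause ichthyosis in people. Nipal4, a membrane protein also called ichthyin, was at 4.90 and 4.80 in KO-BL, against 7.48 and 7.75 in WT-BL (6.79-fold, difference -2.76, interval -3.28 to -2.25, adjusted p = 0.034). Abca12, the transporter that loads glucosylceramides into lamellar granules, was at 3.41 and 3.51 in KO-BL, against 4.62 and 4.69 in WT-BL. Its groups did not overlap, but all 4 values were below the olfactory level, and it did not pass (difference -1.20, adjusted p = 0.079).

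**Figure D2:**
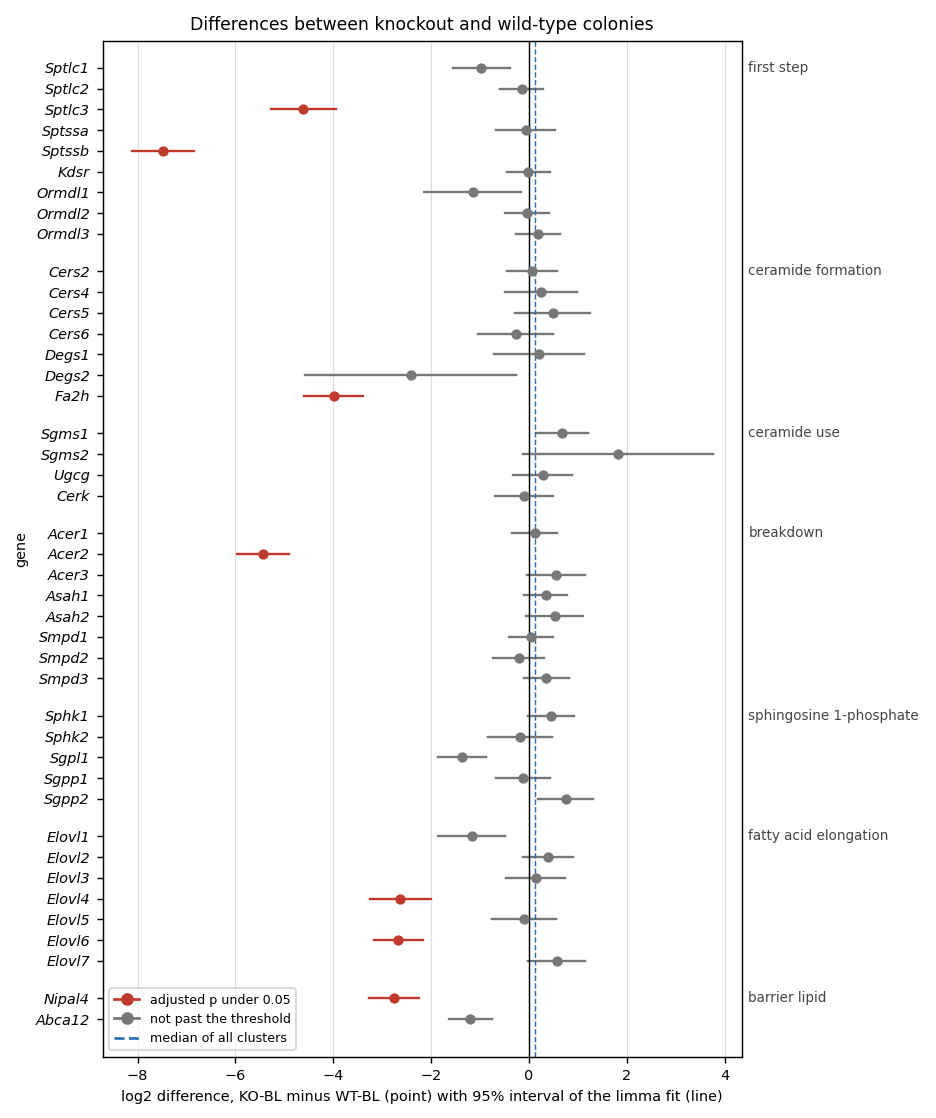
Log2 difference, KO-BL minus WT-BL (horizontal axis), with the 95% interval of the limma fit for each of the 42 measured genes (rows, by pathway step); red marks the 7 genes with adjusted p under 0.05 and the dashed line the median of all clusters, 0.12. The red intervals lie between -8.12 and -2.01, and the widest grey intervals are those of Degs2 and Sgms2.

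Across the list, the median difference was -0.05, against 0.12 over all clusters. Groups did not overlap in 15 genes that were lower in KO-BL and in 14 that were higher, while 13 overlapped. Over all clusters 20.9% were lower and 36.2% higher without overlap. At an unadjusted p under 0.05, 13 genes were lower and 2 higher, against 7.7% and 14.6% of all clusters. Among the 35 genes that did not pass, differences ran from -2.42 to 1.82. For 20 of these the 95% interval lay within -1 and 1, that is, within a 2-fold change either way. For 7 genes of the list, Acer1, Cerk, Smpd2, Smpd3, Elovl2, Elovl3 and Abca12, both group means were at or below the olfactory level. All of these except Abca12 are among the 20, and for such dim genes a narrow interval may not bound the change in RNA.

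The knockout arrays differed from each other more than the wild-type arrays did, in the list as on the whole array. The median absolute gap between arrays of a group was 0.32 in KO-BL and 0.17 in WT-BL over the 42 genes, and 0.31 and 0.18 over all clusters. The gap exceeded 0.5 in 10 genes in KO-BL and in 2 in WT-BL. The largest were those of Degs2, which was 1.31 below the wild-type mean in KO-BL array 1 and 3.53 below it in array 2, and of Sgms2, which was 2.78 above it in array 1 and 0.85 above it in array 2. Both genes were higher in array 1. Of the 15 fibroblast and feeder markers, 14 were higher in array 2, and their part in these gaps was not tested.

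**Figure D3:**
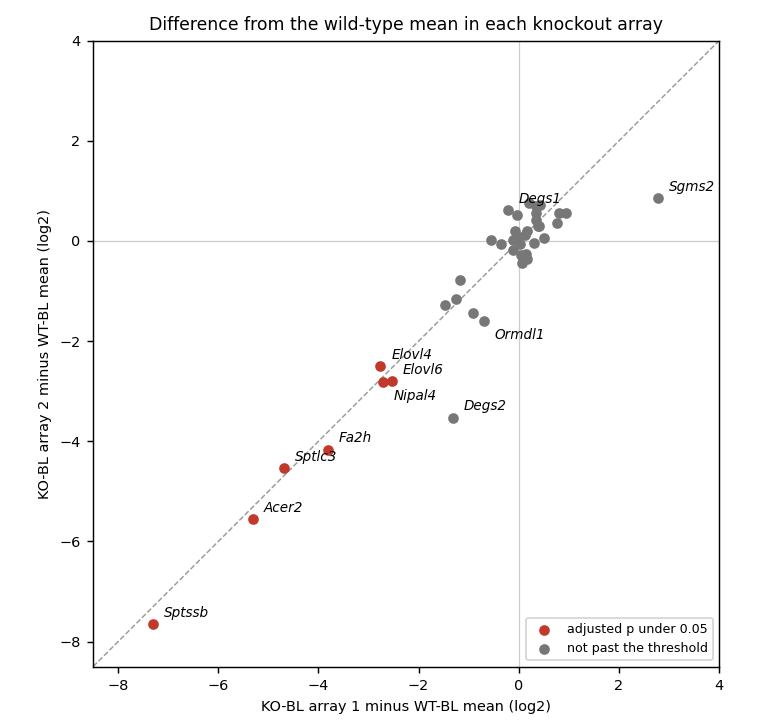
Difference from the wild-type mean in KO-BL array 1 (horizontal axis, log2) against that in KO-BL array 2 (vertical axis, log2) for the 42 measured genes; red marks the 7 genes with adjusted p under 0.05 and the dashed line equal values. Degs2 and Sgms2 lie farthest below the line, with higher levels in array 1.

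Lipid genes around the pathway were counted from 7 further lists, of which 105 of 125 listed genes were measured. Of these 105, 1 fell (0.95%), 0 rose and 104 did not pass, beside 0.386% called lower and 0.141% called higher over all clusters. The median difference of the 105 genes was 0.10. The gene that fell was Fabp4, a fatty acid binding protein of adipocytes, endothelium and differentiated urothelium. It was at 5.49 and 5.20 in KO-BL, against 8.17 and 8.37 in WT-BL (7.59-fold, difference -2.92, adjusted p = 0.034). The 4 measured adipocyte markers had a summed intensity of 264 and 307 in KO-BL and 163 and 177 in WT-BL, with Lpl the brightest. Of the 4, 2 were higher in KO-BL without overlap (Lpl and Cidec) and 2 overlapped (Adipoq and Plin1). Among them Adipoq (3.51 ± 0.18 in KO-BL, 3.29 ± 0.19 in WT-BL) and Plin1 (5.23 ± 0.17 and 5.16 ± 0.23) were near or below the olfactory level, while Lpl was at 7.55 and 7.87 in KO-BL and at 6.49 and 6.84 in WT-BL. Of the 7 endothelial markers, 4 were lower in KO-BL without overlap (Pecam1, Cdh5, Emcn and Esam), 1 was higher (Kdr) and 2 overlapped (Tek and Tie1). Pecam1, the brightest of them, was at 4.63 and 4.29 in KO-BL and at 6.94 and 5.67 in WT-BL. Beside these adipocyte and endothelial counts, 20.9% of all clusters were lower and 36.2% higher without overlap. The parts of adipocyte and endothelial RNA in the difference of Fabp4 were not tested.

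Fabp4 was the 1 call among 20 measured acyl-CoA synthetases, desaturases and binding proteins. Fads2, a desaturase of polyunsaturated fatty acids, was at 5.09 and 5.62 in KO-BL, against 7.48 and 7.42 in WT-BL, and did not pass (difference -2.10, adjusted p = 0.065). Its neighbour in the same pathway, Fads1, had a difference of -0.83, and Acaca, which makes malonyl-CoA, one of -0.80. The fatty acid transporter Slc27a2 differed by 0.87, from below the olfactory level in both groups. In the elongation cycle beside the elongases, 0 of 6 measured genes passed. Tecrl differed by 1.03, with all values below the olfactory level, and Hacd3, a dehydratase of the cycle, by -0.50.

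In the list of acylceramide and cornified envelope genes, 0 of 16 measured genes passed, and differences of both signs were found. Lipk, a lipase of the epidermis, was at 4.70 and 3.77 in KO-BL, against 7.61 and 7.18 in WT-BL (difference -3.16, adjusted p = 0.070). Tgm1, the transglutaminase that cross-links the cornified envelope, averaged 7.04 ± 0.05 in KO-BL and 5.45 ± 0.16 in WT-BL (difference 1.58, adjusted p = 0.064). In both genes the groups were far apart. Dgat2, which makes triglycerides, differed by -0.97 and Awat2, a wax synthase, by 0.74, with all values of Awat2 below the olfactory level. The list median was 0.20.

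None of the other 4 lists held a call. Among 16 glycosphingolipid synthesis genes, A4galt, which makes globotriaosylceramide, averaged 4.14 ± 0.28 in KO-BL and 5.93 ± 0.20 in WT-BL (difference -1.78, adjusted p = 0.075). Ugt8a, which makes galactosylceramide, St3gal5, which makes the ganglioside GM3, and B4galnt1, which extends gangliosides, differed by 0.80, 0.75 and -0.56. Ugt8a was below the olfactory level in every array. Among 21 genes of sphingolipid breakdown in lysosomes and at membranes, Plpp3, a lipid phosphate phosphatase, had the largest difference without overlap, at -1.33 (adjusted p = 0.13). The sialidases Neu4 and Neu3 differed by 0.60 and -0.37, and the cholesterol carrier Npc2 by 0.39. Neu4 was below the olfactory level in every array. Among 15 transport and regulatory genes, Gltp, a glycolipid transfer protein, differed by -0.86 and Pitpna, a phosphatidylinositol transfer protein, by -0.71. Among 11 genes of sphingosine 1-phosphate export and reception, the receptors S1pr4, S1pr5 and S1pr2 differed by -0.82, -0.51 and 0.48, and the exporter Spns2 by 0.56. Both group means of S1pr4 were below the olfactory level.

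**Figure D4:**
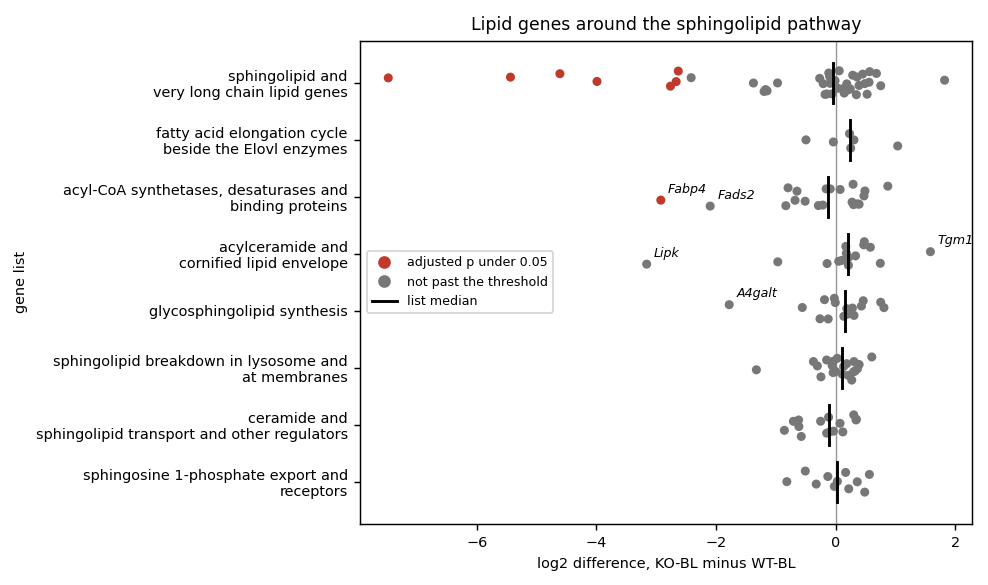
Log2 difference, KO-BL minus WT-BL (horizontal axis), of each measured gene (points) in the sphingolipid and very long chain lipid list and in the 7 further lists (rows), with list medians as black bars; points are spread vertically for legibility and red marks adjusted p under 0.05. Fabp4 is the 1 red point outside the first row.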

How the data were processed

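Total RNA of 4 samples was biotin-labelled and hybridised to 1 Affymetrix Mouse Exon 1.0 ST array each, per the labels. The authors deposited 1 log2 intensity per transcript cluster and array, and none was missing. That these are log2 values follows from their range, 0.79 to 13.9. Affymetrix Expression Console, Partek and build mm9 are named, per the submitters' processing notes. How probes were summarised and arrays normalized is not stated there.

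GEO's platform annotation gave 1 symbol to 14996 clusters, several to 1019 and none to 7317. Entrez identifiers of 14941 matched RefSeq GRCm38, and 0 symbols changed. A linear model with group as its single term was fitted in limma 3.58.1 (R 4.3.3) with moderated variances, two-sided and unfiltered, and p-values were adjusted by Benjamini-Hochberg over all 23332 clusters. The fit had 2 residual and 2.2 prior degrees of freedom and was tested on simulated data. The number of arrays limits the precision. Folds are differences taken off the log2 scale.

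The members and lists were chosen with earlier results of these data known. Per-array values are given for members that passed or that differed by at least 1 without overlap. Sptssa, the second Acer2 cluster and some genes of the further and marker lists were also given per array, chosen after their values were seen. From further lists, calls and up to 4 genes with the largest differences without overlap were named; marker genes and Trp63 served as checks. Marker lists not described gave 0 calls: 8 leukocyte, 6 smooth muscle and 2 neuron and Schwann cell genes. The 4 adipocyte genes described beside Fabp4 also gave 0 calls. Promoter windows came from RefSeq for 38 of the 42 genes, and TATAAA and 3 other motifs were searched. Alternatives were quantile normalization, cyclic loess, a 25th percentile filter, an intensity trend, a replicate block, each array left out and, for Acer2, the other cluster.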

Additional observations from a re-analysis of the deposited data

How the results depend on the processing

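With 2 arrays a group, the spread is poorly known and the calls depend on the variance shared over clusters. The table has no background flags, so how far each KO-BL value lies above background is not known. Over the 42 genes, 6 were called lower after quantile normalization and after cyclic loess, and 8 with an intensity trend. With the 25th percentile filter 8 of the 39 genes left were called lower. These changes were those of Elovl4, lost in the first pair, and Sgpl1, gained in the second. The count was 0 with the replicate block and 0 without any 1 array, and 0 were called higher under every setting. Over all clusters, 236 were called lower and 126 higher with the 25th percentile filter, 189 and 114 with an intensity trend, and 0 and 0 with the replicate block and without any 1 array, against 90 and 33. The filter tests fewer clusters and also re-estimates the shared variance without the dimmest ones. Leaving out an array or adding the block leaves 1 residual degree of freedom. What changed the counts under each of these settings, and under the trend, was not tested. The median difference of all clusters was 0.0029 after quantile normalization, -9.1e-05 after cyclic loess, 0.036 with the filter, and 0.11 to 0.13 with 1 array left out. Trp63 differed by -4.32 with the replicate block (adjusted p = 0.12) and by -4.39 to -4.24 with 1 array left out (adjusted p = 0.075 to 0.34).

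The replicate numbers are not stated to pair the samples, and deviations from the group mean of the arrays numbered 1 correlated at 0.019 across clusters. Under the block, Sptssb had an adjusted p of 0.12 and Elovl4 one of 0.14.

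The 7 genes that fell kept their sign after quantile normalization and cyclic loess. The filter, the trend and the block leave each difference as it is, and leaving out an array cannot turn a sign where the groups do not overlap. Signs turned among genes with small differences that had not passed. After quantile normalization and cyclic loess these were Kdsr (0.035 and 0.039), Acer1 (-0.28 and -0.28) and Elovl3 (-0.25 and -0.25). Differences of both signs with 1 array left out were found for Ormdl2 (-0.11 to 0.020), Cers6 (-0.56 to 0.017), Elovl3 (-0.032 to 0.31), Sptssa (-0.27 to 0.14), Kdsr (-0.055 to 0.030), Cers2 (-0.079 to 0.19), Cers4 (-0.042 to 0.53), Degs1 (-0.21 to 0.62), Cerk (-0.30 to 0.093), Smpd1 (-0.014 to 0.085), Sphk2 (-0.43 to 0.073), Sgpp1 (-0.29 to 0.052) and Elovl5 (-0.35 to 0.17). The other cluster of Acer2 had a difference of -0.37.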

Other observations

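Some lipid genes outside the main list also differed between the knockout arrays. Of the 105 genes of the further lists, 11 (10.5%) had a gap over 0.7 between KO-BL array 1 and KO-BL array 2. So did 4 of the 42 listed genes (9.5%). Both shares were below that of all clusters, 20.3%. The limit was set after the values were seen. Of the 11, 9 were higher in array 1. The other 2, B3galnt1 and Tlcd2, were higher in array 2. B4galt6, which makes lactosylceramide, was at 7.06 and 5.43 in KO-BL and at 6.52 and 6.34 in WT-BL. Gm2a, the activator protein for ganglioside breakdown, was at 8.62 and 7.13 in KO-BL and at 7.55 and 7.48 in WT-BL. In both, KO-BL array 1 was above and KO-BL array 2 below both wild-type arrays, so that the group means were close, at differences of -0.19 and 0.36. Plin2, a coat protein of lipid droplets, showed the same order, at 9.36 and 8.54 in KO-BL and at 8.96 and 9.02 in WT-BL. B3galnt1, which makes globoside from globotriaosylceramide, had the reverse order, at 7.14 and 7.88 in KO-BL and at 7.41 and 7.24 in WT-BL.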
